A study of Homo sapiens with 18 samples.

Results

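The transcripts described here are those of 10 genes that separate 2 p53 constructs from plain wild-type p53 (WTp53): CDKL2, TMEM229A, RAB27B, CLCA2, SERPINB5, DAW1, BEND2, PCSK5, INPP5D and MERTK, out of 18417 genes measured. Each gene was represented by 1 row of the deposited log2 intensities. They were measured in NCI-H1299, a non-small cell lung carcinoma line without p53, 40 hours after transient transfection with pIRES-2EGFP plasmids, and RNA came from sorted, green fluorescent cells. There were 18 arrays, in 2 sets of 9 on different value scales, and levels are compared only within a set. In the first set the groups were ΔNp53:WTp53 (the N-terminally shortened isoform combined with the full-length protein), WTp53 and the empty GFP vector, 3 arrays each, from experiments numbered 0, 4 and 5 (independent transfections by the design text). In the second set the groups were tethered WTp53, WTp53 and the empty GFP vector, 3 arrays each, from experiments lettered d to f (control experiments by the same text). For the lettered experiments nothing states that the cultures were separate, so their p-values may measure technical spread only. The tethered arrays carry that name in their titles and descriptions, while their transfection field names ΔNp53:WTp53. All groups share the p53-null background and the GFP vector, and expression was driven from a transient plasmid rather than from the gene's own locus.

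p53 is a transcription factor that binds DNA as a tetramer and switches on genes of growth arrest, cell death and repair. ΔNp53 lacks the first of its activation domains and can enter tetramers with the full-length protein. CLCA2, a regulator of chloride conductance, and SERPINB5 (maspin), a serpin without protease inhibitor activity, are long known to be p53-inducible in epithelial cells.

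The members were chosen by their measured log2 differences of ΔNp53:WTp53 or tethered WTp53 from WTp53 on these same arrays. CDKL2, TMEM229A, RAB27B, CLCA2, SERPINB5 and DAW1 held ranks 4, 10, 16, 2, 3 and 5 of 18417 by absolute difference between ΔNp53:WTp53 and WTp53. RAB27B also held rank 3 and MERTK rank 9 for tethered WTp53 against WTp53. Which difference picked each gene is not stated. By these ranks CDKL2, CLCA2, SERPINB5 and DAW1 were taken as picked in the first set, and MERTK in the second. TMEM229A also held rank 43 for tethered WTp53 against WTp53, so either set may have picked it, as for RAB27B. BEND2, PCSK5 and INPP5D held ranks 95, 1106 and 18 in the first set and 1458, 134 and 1594 in the second. Out of caution these were not assigned to a set. Tests are therefore given only in the second set for CDKL2, CLCA2, SERPINB5 and DAW1, and only in the first set for MERTK. All other values are descriptions. Changes are log2 differences ± the standard error of a limma fit of the 9 arrays of a set, with p-values adjusted over 18417 genes. The number of arrays limits the precision, and an exact permutation test of 3 arrays against 3 cannot fall below 0.1.

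Promoter windows from RefSeq (GRCh38.p14) were available for 8 members in 9 windows, RAB27B having 2, and not for DAW1 and BEND2. The 4 printed here were taken because 2 belong to genes with an unmismatched p53 half-site and 2 to the members with the strongest WTp53 response in the first set. Each is the 250 bases before the start, plus strand, and capitals mark p53 half-sites, without mismatch in RAB27B and PCSK5 and with at most 1 mismatch in CLCA2 and SERPINB5.
RAB27B, chr18:54828227-54828476: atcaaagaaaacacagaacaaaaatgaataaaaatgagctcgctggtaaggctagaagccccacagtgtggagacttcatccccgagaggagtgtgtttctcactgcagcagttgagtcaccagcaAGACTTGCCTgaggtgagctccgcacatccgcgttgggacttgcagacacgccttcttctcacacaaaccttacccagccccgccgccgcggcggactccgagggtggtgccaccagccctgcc
PCSK5, chr9:75890423-75890672: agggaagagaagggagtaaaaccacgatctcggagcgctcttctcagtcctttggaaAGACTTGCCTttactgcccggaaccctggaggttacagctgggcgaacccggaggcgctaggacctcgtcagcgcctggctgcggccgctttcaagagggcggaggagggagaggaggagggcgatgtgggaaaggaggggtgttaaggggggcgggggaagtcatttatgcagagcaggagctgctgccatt
CLCA2, chr1:86423921-86424170: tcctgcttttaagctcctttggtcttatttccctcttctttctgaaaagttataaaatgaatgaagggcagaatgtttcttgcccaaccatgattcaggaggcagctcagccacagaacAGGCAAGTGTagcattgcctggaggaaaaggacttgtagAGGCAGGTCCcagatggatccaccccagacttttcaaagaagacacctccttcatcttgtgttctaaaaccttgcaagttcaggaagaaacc
SERPINB5, chr18:63476708-63476957: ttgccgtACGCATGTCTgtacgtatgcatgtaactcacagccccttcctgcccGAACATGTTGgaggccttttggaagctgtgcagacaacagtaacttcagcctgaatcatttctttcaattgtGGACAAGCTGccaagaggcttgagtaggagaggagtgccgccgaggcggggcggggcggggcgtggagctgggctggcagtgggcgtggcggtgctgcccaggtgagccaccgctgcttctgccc
The unmismatched half-site occurred in 2 of the 9 windows and in 5.57% of all 35116 windows of this length. RAB27B and PCSK5 carried the same letters, AGACTTGCCT, at 124 to 115 and 193 to 184 bases before the start. With at most 1 mismatch a half-site was in 7 of the 9 windows, against 57.5% of all windows. The AP-1 motif TGANTCA, searched on both strands, was in 3 of the 9 (RAB27B, CLCA2 and SERPINB5) and in 6.57% of all, and overlapped none of the marked half-sites. CLCA2 was also the member without any CG dinucleotide, which holds for 6.06% of all windows. These matches describe letters in a window and are not evidence of binding.

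A set of 4 members was highest with WTp53 and lower with both constructs: CLCA2, SERPINB5, DAW1 and INPP5D. In the first set CLCA2 measured 3.87, 4.78 and 4.83 with ΔNp53:WTp53 in experiments 0, 4 and 5, against 6.13, 7.02 and 6.63 with WTp53 and 3.08, 3.05 and 3.39 with the vector. The 3 groups did not overlap, and the difference of ΔNp53:WTp53 from WTp53 was −2.10 ± 0.28, a 4.28-fold lower level. SERPINB5 measured 3.21, 3.39 and 3.35 with ΔNp53:WTp53, against 5.00, 5.54 and 5.34 with WTp53 and 2.89, 3.05 and 2.94 with the vector. Here the ΔNp53:WTp53 arrays lay just above the vector arrays, and their difference from WTp53 was −1.98 ± 0.13. DAW1, whose product helps deliver outer dynein arms to cilia, measured 3.83, 4.24 and 4.48 with ΔNp53:WTp53, against 5.47, 6.25 and 6.08 with WTp53 and 3.66, 3.88 and 3.95 with the vector. ΔNp53:WTp53 overlapped the vector for this gene and differed from WTp53 by −1.75 ± 0.21. INPP5D, which encodes SHIP1, a lipid phosphatase acting against phosphoinositide 3-kinase signalling and best known from blood cells, measured 4.63, 4.44 and 4.53 with ΔNp53:WTp53, against 5.94, 6.01 and 5.80 with WTp53 and 4.57, 4.26 and 4.50 with the vector. ΔNp53:WTp53 and vector overlapped, with a difference of 0.09 ± 0.10, while WTp53 was 1.48 ± 0.10 above the vector. No background call comes with the values, so how far the low vector levels compress these differences is unknown.

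In the second set the same 4 genes were again highest with WTp53, with the tethered form between WTp53 and vector. CLCA2 measured 7.19, 7.32 and 7.21 with tethered WTp53 (experiments d, e, f), against 7.50, 7.88 and 7.58 with WTp53 and 5.73, 5.54 and 5.70 with the vector. It fell by 0.41 against WTp53 (SE 0.09, limma adjusted p = 0.00577, lower in 3 of 3 experiments) and rose by 1.58 ± 0.09 against the vector (limma adjusted p = 1.35e-07). SERPINB5 measured 6.31, 6.24 and 6.24 with tethered WTp53, against 6.60, 7.10 and 6.89 with WTp53 and 5.43, 5.27 and 5.44 with the vector. Its fall against WTp53 was −0.60 ± 0.10 (limma adjusted p = 0.00143, lower in 3 of 3) and its rise against the vector 0.88 ± 0.10 (limma adjusted p = 2.82e-05). DAW1 showed the smallest separation, with 5.92, 5.80 and 5.79 for tethered WTp53, against 5.93, 6.28 and 6.14 for WTp53 and 5.60, 5.65 and 5.54 for the vector. The groups did not overlap, but tethered WTp53 and WTp53 differed by only −0.01 in experiment d. DAW1 fell by 0.28 against WTp53 (SE 0.08, limma adjusted p = 0.0201, passing under 10 of 16 alternatives, which ran from 0.00314 to 0.345) and rose by 0.24 ± 0.08 against the vector (limma adjusted p = 0.027, passing under 11 of 16, from 0.00609 to 0.344). The DAW1 fall was not called without tethered WTp53 e or f, or without WTp53 e or f (limma adjusted p = 0.0599, 0.0623, 0.0728 and 0.0653), nor its rise without tethered WTp53 d, or without vector d or f (limma adjusted p = 0.103, 0.0649 and 0.0944). INPP5D measured 7.05 on each tethered array, against 7.42, 7.35 and 7.45 with WTp53 and 6.65, 6.61 and 6.61 with the vector, in values deposited to 2 decimals. Its difference between tethered WTp53 and WTp53 was −0.36 ± 0.04.

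Another 4 members were highest with the constructs: CDKL2, TMEM229A, RAB27B and MERTK. CDKL2, a kinase of the cyclin-dependent kinase-like family, measured 7.48, 8.54 and 8.68 with ΔNp53:WTp53, against 6.30, 6.23 and 6.53 with WTp53 and 5.53, 5.52 and 5.43 with the vector. ΔNp53:WTp53 exceeded WTp53 by 1.88 ± 0.26, or 3.68-fold, and its array of experiment 0 was the lowest of the 3 while still above all WTp53 arrays. TMEM229A, a gene for a transmembrane protein, measured 4.43, 5.48 and 5.65 with ΔNp53:WTp53, against 3.51, 4.15 and 3.38 with WTp53 and 3.46, 3.19 and 3.38 with the vector. WTp53 and vector overlapped, so the gene stood out with ΔNp53:WTp53 alone, by 1.51 ± 0.30 over WTp53. RAB27B, a small GTPase that docks secretory vesicles and exosome-forming endosomes at the plasma membrane, measured 6.68, 7.12 and 7.03 with ΔNp53:WTp53, against 5.47, 5.68 and 5.46 with WTp53 and 5.07, 4.39 and 3.85 with the vector. The 3 groups were ordered without overlap, with 1.41 ± 0.25 between ΔNp53:WTp53 and WTp53. MERTK, a receptor tyrosine kinase of the TAM family that takes part in the clearance of dying cells, measured 9.49, 9.93 and 9.89 with ΔNp53:WTp53, against 8.95, 9.22 and 9.32 with WTp53 and 7.24, 7.47 and 7.49 with the vector.

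MERTK was the member that could be tested in the first set. It rose 5.16-fold with ΔNp53:WTp53, by 2.37 ± 0.14 over the vector (limma adjusted p = 8.13e-06, higher in 3 of 3 experiments), and 3.39-fold with WTp53, by 1.76 ± 0.14 (limma adjusted p = 3.41e-05). Over all genes 15.7% rose with ΔNp53:WTp53 and 15.2% with WTp53 against the vector. Its difference between ΔNp53:WTp53 and WTp53 was 0.61 ± 0.14 and did not pass (limma adjusted p = 0.0576), although all 3 experiments had it higher, by 0.54 to 0.71. With the experiment number as a block the difference passed (limma adjusted p = 0.00973). It passed under 7 of 18 alternatives, the block among them (limma adjusted p from 0.00313 to 0.2). Without the ΔNp53:WTp53 array of experiment 0 it also passed, at 0.75 (limma adjusted p = 0.00529). In that comparison 2.44% of all genes were called, 449 in number, against 806 with the block.

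**Figure D1:**
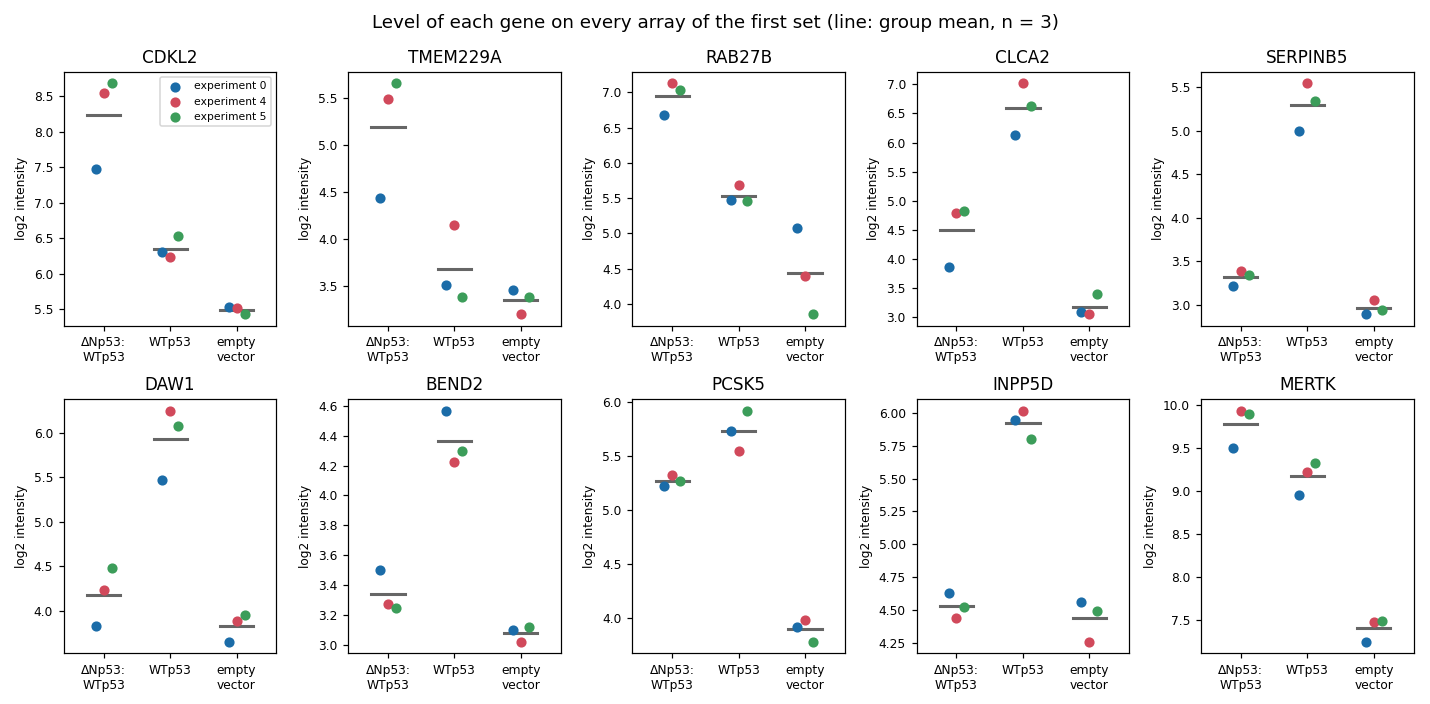
Log2 intensity (y axis, each panel on its own scale) of the 10 genes on the 9 arrays of the first set, by group (x axis). Points are arrays coloured by experiment and lines are means of 3 arrays; SERPINB5, DAW1 and INPP5D with ΔNp53:WTp53 sit close to the vector, whereas CDKL2, TMEM229A, RAB27B and MERTK sit above WTp53.

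The same 4 genes were highest with tethered WTp53 in the second set. CDKL2 measured 7.94, 8.0 and 7.72 with tethered WTp53, against 7.31, 7.54 and 7.46 with WTp53 and 7.13, 6.90 and 6.84 with the vector. It rose by 0.45 ± 0.09 against WTp53 (limma adjusted p = 0.00417, higher in 3 of 3 experiments) and by 0.93 ± 0.09 against the vector (limma adjusted p = 8.85e-06). TMEM229A measured 6.91, 6.92 and 6.94 with tethered WTp53, against 5.69, 6.33 and 5.90 with WTp53 and 4.86, 5.66 and 4.98 with the vector. It was 0.95 ± 0.20 above WTp53, higher in 3 of 3 experiments, and 1.76 ± 0.20 above the vector. RAB27B measured 9.49, 9.34 and 9.30 with tethered WTp53, against 7.58, 7.79 and 7.66 with WTp53 and 6.28, 6.17 and 6.41 with the vector. The groups stood far apart, tethered WTp53 8.51-fold above the vector and WTp53 2.62-fold. MERTK measured 11.18, 11.17 and 10.91 with tethered WTp53, against 9.72, 9.82 and 9.85 with WTp53 and 9.23, 9.06 and 9.16 with the vector. Tethered WTp53 was 1.29 ± 0.08 above WTp53, a larger step than the 0.65 ± 0.08 between WTp53 and vector.

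**Figure D2:**
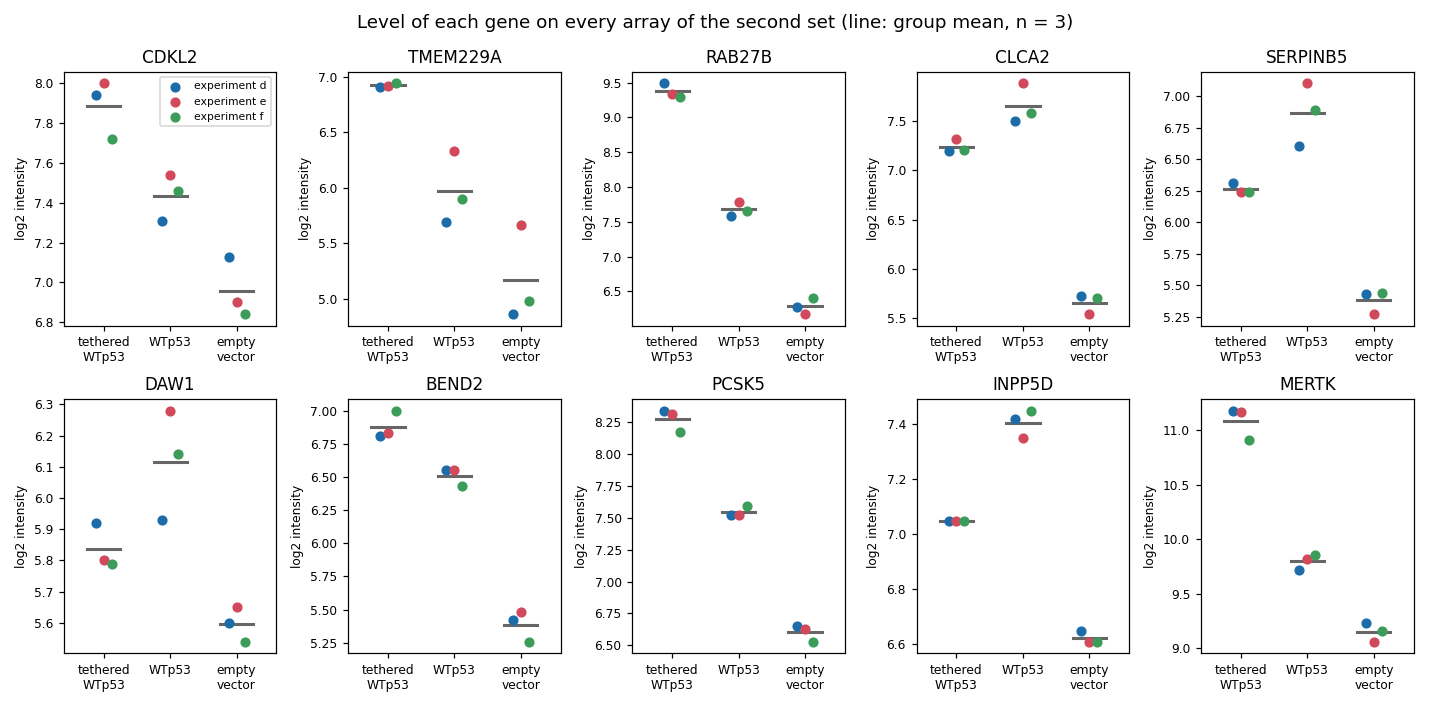
Log2 intensity (y axis, each panel on its own scale) of the 10 genes on the 9 arrays of the second set, by group (x axis). Points are arrays coloured by experiment and lines are means of 3 arrays; BEND2 and PCSK5 are highest with tethered WTp53, and CLCA2, SERPINB5, DAW1 and INPP5D are highest with WTp53.

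BEND2 and PCSK5 differed from WTp53 in opposite directions with the 2 constructs. BEND2, a BEN domain gene, measured 3.50, 3.27 and 3.25 with ΔNp53:WTp53, against 4.57, 4.23 and 4.30 with WTp53 and 3.10, 3.02 and 3.12 with the vector. On the second-set arrays it measured 6.81, 6.83 and 7.0 with tethered WTp53, against 6.55, 6.55 and 6.43 with WTp53 and 5.42, 5.48 and 5.26 with the vector. Its difference from WTp53 was −1.02 ± 0.11 with ΔNp53:WTp53 and 0.37 ± 0.07 with tethered WTp53. PCSK5, a proprotein convertase that cleaves precursors of growth factors and adhesion proteins, measured 5.22, 5.32 and 5.26 with ΔNp53:WTp53, against 5.73, 5.54 and 5.92 with WTp53 and 3.92, 3.98 and 3.78 with the vector. On the second-set arrays it measured 8.34, 8.31 and 8.17 with tethered WTp53, against 7.52, 7.52 and 7.59 with WTp53 and 6.65, 6.63 and 6.53 with the vector. Its difference from WTp53 was −0.46 ± 0.11 with ΔNp53:WTp53 and 0.73 ± 0.06 with tethered WTp53. Each of these directions was seen in 3 of 3 experiments. Since the difference from WTp53 in either set may have picked these genes, the values are given without a test. The 2 constructs were measured in different sets, so construct and set cannot be told apart here.

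**Figure D3:**
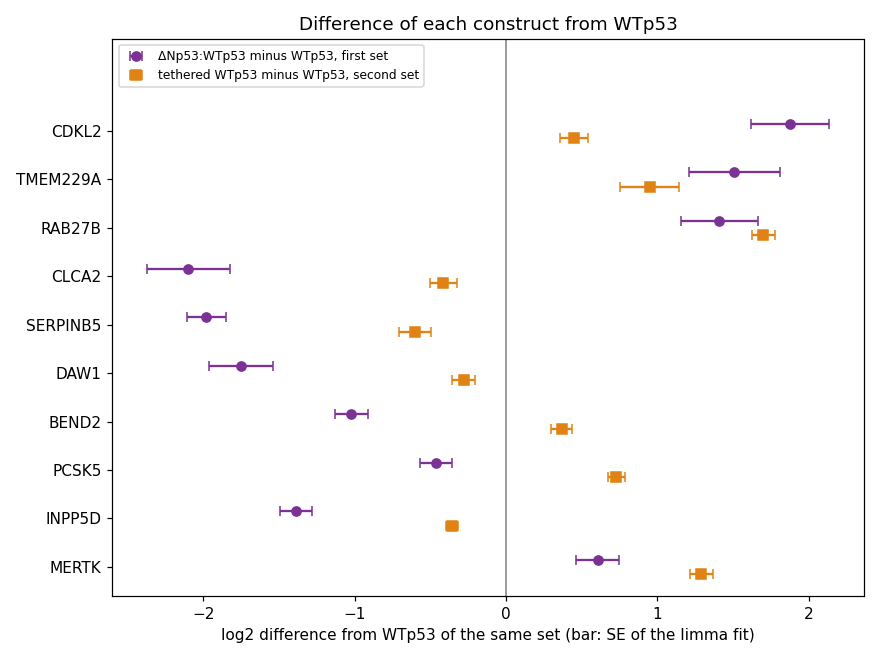
Log2 difference of ΔNp53:WTp53 (circles, first set) and tethered WTp53 (squares, second set) from WTp53 of the same set (x axis) for each gene (y axis), with bars of 1 standard error and n = 3 arrays per group. All genes but BEND2 and PCSK5 lie on the same side of 0 in both sets; BEND2 is at −1.02 and 0.37, and PCSK5 at −0.46 and 0.73.

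WTp53 itself raised the tested members in the second set, on arrays that by the ranks were taken not to have picked them. CLCA2 rose 3.99-fold, by 2.0 ± 0.09 (limma adjusted p = 6.4e-08), and SERPINB5 2.80-fold, by 1.48 ± 0.10 (limma adjusted p = 1.18e-06). DAW1 rose by 0.52 ± 0.08 (limma adjusted p = 3.47e-04) and CDKL2 by 0.48 ± 0.09 (limma adjusted p = 0.00187). TMEM229A, given without a test, was 0.81 ± 0.20 above the vector. All tested members passed, where 17.9% of all genes rose. CDKL2 did not pass when all 18 arrays shared one spread (limma adjusted p = 0.135, the highest of 16 alternatives that began at 0.00108). Against the vector CDKL2, CLCA2, SERPINB5 and DAW1 rose with tethered WTp53 as well, where 21.6% of all genes did. Against WTp53, CDKL2 rose and CLCA2, SERPINB5 and DAW1 fell with tethered WTp53, where 14.9% of all genes rose and 17.5% fell. The directions were those of ΔNp53:WTp53 against WTp53 in the first set. This was common: of the 107 genes that differed at least 2-fold between ΔNp53:WTp53 and WTp53, 88.8% had the same sign for tethered WTp53 and 75.7% also passed in that direction. When all 18 arrays shared one spread, CDKL2, CLCA2 and DAW1 no longer passed for tethered WTp53 against WTp53 (limma adjusted p = 0.204, 0.275 and 0.345, each the highest of 16 alternatives that began at 0.00233, 0.00344 and 0.00314).

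The sizes of the responses differed between genes when each was set against its own WTp53 response. On the log2 scale the difference of ΔNp53:WTp53 from the vector was 6.10% of that of WTp53 for INPP5D, 15.2% for SERPINB5, 16.7% for DAW1, 20.5% for BEND2, 38.6% for CLCA2 and 74.9% for PCSK5. Over experiments these shares ran from 2.32% to 10.2% for INPP5D, 13.5% to 17.0% for SERPINB5, 9.58% to 24.8% for DAW1, 11.2% to 27.7% for BEND2, 25.9% to 44.3% for CLCA2 and 69.3% to 86.0% for PCSK5. INPP5D, SERPINB5 and CLCA2 therefore kept an order that their experiments did not blur, while SERPINB5, DAW1 and BEND2 overlapped. The range of DAW1 also overlapped that of INPP5D, and the range of BEND2 that of CLCA2. The members were picked for differences from WTp53, so shares far from those of other genes follow in part from the choice and are no test. The 741 genes that WTp53 raised at least 2-fold in that set had a median share of 104%, with 65.3% at the tenth percentile. For tethered WTp53 the shares were 46.2% for DAW1, 54.5% for INPP5D, 59.6% for SERPINB5 and 79.3% for CLCA2, against a median of 120% over 307 such genes and 89.5% at the tenth percentile. CDKL2 stood at 319% with ΔNp53:WTp53, and TMEM229A at 218% with tethered WTp53. BEND2 stood at 133%, PCSK5 at 178% and MERTK at 299% with tethered WTp53, and MERTK at 134% with ΔNp53:WTp53. RAB27B stood at 229% with ΔNp53:WTp53, from 198% to 405% over experiments, and at 222% with tethered WTp53, from 196% to 247%. The ranges over experiments were 253% to 425% for CDKL2 with ΔNp53:WTp53, and, with tethered WTp53, 188% to 247% for TMEM229A, 123% to 149% for BEND2, 155% to 194% for PCSK5 and 254% to 398% for MERTK. The DAW1 share with tethered WTp53 ran from 23.8% to 97.0% over experiments. CDKL2 in the second set and TMEM229A in the first had a WTp53 response under 0.2 in some experiment and were given no share. Some members with a share rose less than 2-fold with WTp53 and are outside the background genes. These were CDKL2 in the first set (1.81-fold), and in the second DAW1 (1.43), MERTK (1.57), INPP5D (1.72), TMEM229A (1.75) and PCSK5 (1.92).

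**Figure D4:**
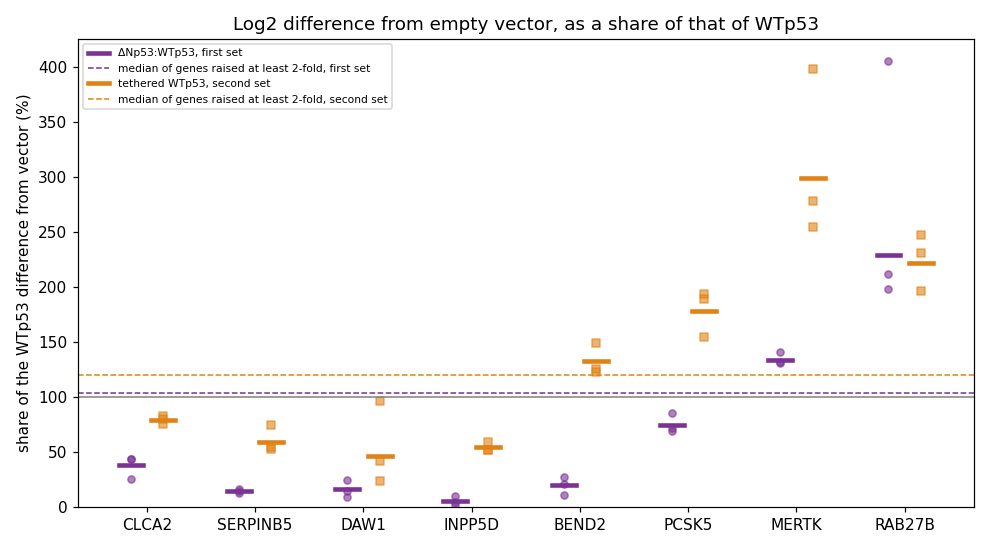
Log2 difference of each construct from the vector as a percent of the WTp53 difference of the same set (y axis) for 8 genes (x axis). Points are experiments, bars are the values from group means, and dashed lines are medians over genes raised at least 2-fold by WTp53, 104% in the first set and 120% in the second.

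As a description of these arrays, the ranges of all 10 members did not overlap between ΔNp53:WTp53 and WTp53, where 20.6% of all genes did so. For ΔNp53:WTp53 against the vector the ranges of 8 of the 10 were apart, all but DAW1 and INPP5D, where 45.6% of all genes were apart and 36.1% called. For WTp53 against the vector in the first set 9 of the 10 were apart, all but TMEM229A, where 48.8% were apart and 31.8% called. In the second set all 10 were apart in each comparison, where 42.6% of all genes were for tethered WTp53 against WTp53, 52.3% for tethered WTp53 against the vector and 47.2% for WTp53 against the vector. Called genes against the vector in that set made up 47.8% with tethered WTp53 and 36.8% with WTp53.

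In both sets the same 8 of the 10 members can be put in 2 families of profiles. They are described here without a test since the grouping follows the values. CLCA2, SERPINB5, DAW1 and INPP5D correlated with one another at Pearson r of 0.902 to 0.986 over the 9 first-set arrays and 0.874 to 0.970 over the 9 second-set arrays. CDKL2, TMEM229A, RAB27B and MERTK correlated at 0.763 to 0.946 and 0.903 to 0.987. Between the families r ran from −0.26 to 0.625 and from 0.276 to 0.746. BEND2 and PCSK5 did not keep to a family in both sets. In the first set BEND2 correlated at 0.894 with CLCA2, 0.945 with SERPINB5, 0.895 with DAW1 and 0.971 with INPP5D. PCSK5 was mixed there, at 0.876 with CLCA2 and 0.867 with MERTK. In the second set PCSK5 correlated at 0.970 with CDKL2, 0.933 with TMEM229A, 0.986 with RAB27B and 0.963 with MERTK. BEND2 was mixed there, at 0.889 with CLCA2 and 0.927 with RAB27B. The arrays of a group share their construct, so the 9 points of each correlation are not independent.

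The genes with the profile most like each member were found over the 9 arrays of 1 set, with r over the 9 arrays of the other set as a second value. SERPINB5 was closest to the growth factor gene GDF9 (r = 0.999, and 0.957 in the second set) and to the glucose transporter gene SLC2A2 (0.988 and 0.472). DAW1 was closest to SLC2A2 (0.986 and 0.394) and to SERPINB5 itself (0.986 and 0.951). CLCA2 was closest to the arginine deiminase gene PADI3 (0.995 and 0.944) and the splicing factor gene PRPF18 (0.992 and 0.902). RAB27B was closest to SGSH, which encodes a lysosomal sulfatase (0.991 and 0.944), and the adaptor gene DOK4 (0.988 and 0.987). CDKL2 was closest to MAMLD1 (0.994 and 0.907) and CNOT6L, a deadenylase gene (0.990 and 0.895), and TMEM229A to CDIPT, which encodes phosphatidylinositol synthase (0.987 and 0.787), and the protocadherin gene PCDHB6 (0.983 and 0.609). By second-set profiles MERTK was closest to the phosphatase gene DUSP1 (0.998, and 0.969 in the first set) and TMEM145 (0.998 and 0.950), and PCSK5 to CEP120, a centrosomal protein gene (0.999 and 0.943), and the adrenergic receptor gene ADRA2C (0.999 and 0.819). BEND2 was closest to RUNDC3A (0.997 and 0.767) and ZNF563 (0.995 and 0.207), and INPP5D to the ribosomal protein gene RPL10A (0.994 and 0.457) and RNF149 (0.989 and 0.445). The best of 18417 genes over 9 arrays is high by selection, and the value from the other set is the less selected one. SLC2A2, ZNF563, RPL10A and RNF149 were below 0.5 there.

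In the first set 1 of the 68 measured relatives of the members was called for ΔNp53:WTp53 against WTp53, or 1.47%, against 2.44% of all genes, so few calls per list are what the background gives. Of 10 other measured clade B serpins 0 passed in limma. The same held for 2 other CLCA genes, 3 CDKL kinases, 11 genes of RAB27 and its effectors, 4 TAM receptors and ligands, 10 phosphoinositide phosphatases, 7 BEN domain genes, 15 outer dynein arm genes and TMEM229B. An unadjusted p under 0.05 was found for 6 of the 68. With the replicate block 3 passed: FURIN, INPP5E at 0.61 (limma adjusted p = 0.0324, against 0.0624 without the block) and BEND3 at −0.46 (limma adjusted p = 0.0416, against 0.146). The 1 relative called without the block was FURIN, the prototype proprotein convertase, which was 0.50 ± 0.11 higher with ΔNp53:WTp53 (limma adjusted p = 0.0487), opposite to PCSK5, and passed under 7 of 18 alternatives (limma adjusted p = 8.59e-04 to 0.18), among them that without the ΔNp53:WTp53 array of experiment 0 but no other with 1 array left out. FURIN also rose in the second set, by 0.41 ± 0.04 with tethered WTp53 against WTp53 (limma adjusted p = 5.36e-05), the direction of PCSK5 there. TMEM229B, the paralog of TMEM229A, rose by 1.27 ± 0.23 with ΔNp53:WTp53 and by 0.95 ± 0.23 with WTp53 against the vector (limma adjusted p = 0.00221 and 0.011), and by 0.69 ± 0.21 with tethered WTp53 against WTp53 (limma adjusted p = 0.0289, passing under 11 of 16 alternatives, from 0.00251 to 0.0972).

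Of the 68 relatives 12 rose and 10 fell with tethered WTp53 against WTp53, the same 32.4% as over all genes. Those named here had the smallest p of their lists. SERPINB7 fell by 0.65 (limma adjusted p = 2.92e-05) and SERPINB8 by 0.31 (limma adjusted p = 0.00133), while the other 8 serpins did not pass. CDKL1 rose by 0.41 ± 0.06 (limma adjusted p = 3.62e-04), as CDKL2 did. RAB27A, the close homolog of RAB27B, fell by 0.39 (limma adjusted p = 0.00243), opposite to RAB27B. Of 10 other phosphoinositide phosphatases 4 rose and 1 fell, the latter in the direction of INPP5D. INPP5E, a phosphatase of primary cilia, rose by 0.43 ± 0.04 (limma adjusted p = 4.18e-05), opposite to INPP5D. Of 15 outer dynein arm genes 1 rose and 3 fell, DNAAF3 by 0.25 ± 0.05 (limma adjusted p = 0.00474) and DNAL1, a dynein light chain gene, at −0.49 ± 0.07 (limma adjusted p = 6.40e-04). Of 4 TAM relatives the receptor AXL rose by 0.11 ± 0.04 (limma adjusted p = 0.0422), a call kept under 4 of 17 alternatives and lost with the replicate block. GAS6, a ligand of MERTK, rose against the vector in every form, by 0.87 ± 0.12 with ΔNp53:WTp53 and 0.94 ± 0.12 with WTp53 in the first set (limma adjusted p = 4.42e-04 and 3.05e-04), and by 0.69 ± 0.06 with tethered WTp53 and 0.66 ± 0.06 with WTp53 in the second (limma adjusted p = 2.83e-06 and 8.42e-06). PROS1, another TAM ligand, fell by 0.46 with tethered WTp53 and by 0.35 with WTp53 against the vector in the second set (limma adjusted p = 1.18e-04 and 0.00127).

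Values of the whole series that bear on these genes were as follows. Array medians lay between 4.89 and 4.97 (first set) and between 7.01 and 7.07 (second set), and the median gene SD between replicates was 0.151 for ΔNp53:WTp53, against 0.109 for WTp53 and 0.104 for the vector of the first set. CDKN1A and MDM2, canonical p53 targets, rose against the vector by 3.69 ± 0.26 and 3.09 ± 0.11 with ΔNp53:WTp53 (limma adjusted p = 1.91e-05 and 6.39e-07) and by 3.22 ± 0.06 and 2.27 ± 0.10 with tethered WTp53 (limma adjusted p = 6.55e-11 and 1.39e-08). Between ΔNp53:WTp53 and WTp53, CDKN1A differed by −0.93 ± 0.26, or 1.90-fold, and MDM2 by −0.31 ± 0.11, neither past the threshold (limma adjusted p = 0.1 and 0.173). Between tethered WTp53 and WTp53 the differences were 0.09 ± 0.06 and 0.17 ± 0.10 (limma adjusted p = 0.239 and 0.21). The epithelial keratin gene KRT18 averaged 10.3 with ΔNp53:WTp53, 10.4 with WTp53 and 10.3 with the vector, whereas EPCAM averaged 3.15, 3.10 and 2.95, and no detection call came with either. Of 8 epithelial markers 1 rose against the vector with ΔNp53:WTp53 and 2 with tethered WTp53, and 0 fell. Over all genes 15.7% and 21.6% rose. KRT8, the keratin partner of KRT18, rose against the vector by 0.86 ± 0.20 with ΔNp53:WTp53 and by 0.60 ± 0.05 with tethered WTp53 (limma adjusted p = 0.00744 and 3.44e-06). It also rose with WTp53 in the second set, by 0.49 ± 0.05 (limma adjusted p = 3.05e-05). Neither construct differed from WTp53 for KRT8 past the threshold (limma adjusted p = 0.205 and 0.15). Of 5 mesenchymal markers 2 rose against WTp53 with each construct, 0 fell, and 3 (VIM, FN1 and SPARC) did not pass. Over all genes 2.44% were called in either direction with ΔNp53:WTp53, and 14.9% rose with tethered WTp53. CDH2 and ZEB1 rose by 0.59 ± 0.10 and 0.49 ± 0.10 with ΔNp53:WTp53 (limma adjusted p = 0.0184 and 0.0348). With tethered WTp53 they rose by 0.28 ± 0.05 and 0.29 ± 0.04 (limma adjusted p = 0.00223 and 6.73e-04). Against the vector ZEB1 differed by 0.06 ± 0.10 with ΔNp53:WTp53 and −0.43 ± 0.10 with WTp53 in the first set (limma adjusted p = 0.725 and 0.00778). In the second set it differed by 0.25 ± 0.04 with tethered WTp53 and −0.04 ± 0.04 with WTp53 (limma adjusted p = 5.92e-04 and 0.529). INPP5D and MERTK are also expressed by leukocytes, whose 8 markers summed to 521 to 881 intensity units with ΔNp53:WTp53, 635 to 888 with WTp53 and 528 to 904 with the vector in the first set. In the second set the sums were 4480 to 4620 with tethered WTp53, 4370 to 4710 with WTp53 and 3280 to 3460 with the vector, most of it from CD68, which rose by 0.58 ± 0.05 with tethered WTp53 and 0.56 ± 0.05 with WTp53 (limma adjusted p = 2.03e-06 and 5.97e-06). Of the 8 markers, 1 rose and 1 fell with tethered WTp53 against the vector, and 2 rose and 1 fell with WTp53. Over all genes 47.8% and 36.8% were called there. In the first set 0 were called with ΔNp53:WTp53 against the vector, and 2 rose and 0 fell with WTp53. Over all genes 36.1% and 31.8% were called there. PTPRC, which defines leukocytes, averaged 2.74, 2.74 and 2.76 with ΔNp53:WTp53, WTp53 and vector, and 4.07, 4.14 and 4.11 with tethered WTp53, WTp53 and vector. CD14, a monocyte gene of the same list, fell against the vector in the second set, at −0.50 ± 0.08 with tethered WTp53 and −0.33 ± 0.08 with WTp53 (limma adjusted p = 3.41e-04 and 0.00809). CD79A, a B cell gene, was highest with WTp53 in both sets, as INPP5D was. It averaged 4.89 with ΔNp53:WTp53, 5.22 with WTp53 and 4.93 with the vector, and its difference of −0.32 between ΔNp53:WTp53 and WTp53 did not pass (limma adjusted p = 0.0532). In the other set it fell by 0.32 with tethered WTp53 against WTp53 (limma adjusted p = 7.60e-04), where 7 of the 8 markers did not pass. TYROBP of the same list rose with WTp53 against the vector in the first set, by 0.47 ± 0.10 (limma adjusted p = 0.00457). In the second set TYROBP did not pass (limma adjusted p = 0.365). All arrays came from sorted cells of the NCI-H1299 line, and no leukocyte sample is among them. A part of leukocyte RNA in the INPP5D and MERTK values was not tested. Fewer expressing cells and less RNA per cell cannot be told apart in these bulk samples.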

How the data were processed

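RNA of sorted NCI-H1299 cells was hybridized to 18 Affymetrix Gene arrays. The deposited values are log2 intensities made with RMA in Affymetrix Expression Console, per the submitters' processing notes; versions and genome build are not given in the sources used here. The values show that the authors deposited 2 sets normalized apart. Of 33297 rows 19460 have 1 gene symbol, 1754 several and 12083 are not listed in the probe table; the highest-mean row stood for each of 18417 genes, and no filter on low values was applied. The transfected gene is not reported here.

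Groups follow the titles. Each set was fitted alone in limma 3.58.1 (R 4.3.3), with 3 group means and 6 residual degrees of freedom. Tests were 2-sided, with Benjamini-Hochberg adjustment over 18417 genes and a threshold of 0.05. Members were thus tested on arrays taken not to have picked them. The script was tested on simulated data. Members, lists and tests were chosen with earlier results of these data known. The plan had also provided first-set tests for BEND2, PCSK5 and INPP5D and second-set tests for RAB27B and TMEM229A. They were dropped because those arrays may have picked them. Named relatives are up to 4 of each list with the smallest p in any comparison, and the 2 genes of highest Pearson r per member. Same-experiment residuals of the first set correlated at 0.106 to 0.572 (9 of 9 above 0.1), and different-experiment residuals at −0.499 to 0.35. Experiment 0 stood apart, while experiments 4 and 5 correlated across about as much as within. ΔNp53:WTp53 of experiment 4 had 0.35 with WTp53 of experiment 5 and 0.309 with WTp53 of experiment 4. Pairing of experiments 4 and 5 is thus not shown, and the block is an alternative. In the second set same-experiment residuals correlated at −0.039 to 0.132 (2 of 9 above 0.1), so its letters were taken as labels. Alternatives changed the shared spread, block, normalization, row, filter, variance trend and arrays left out.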

Additional observations from a re-analysis of the deposited data

How the results depend on the processing

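The count of genes called for ΔNp53:WTp53 against WTp53 depended most on the processing. It was 449 as reported, 2693 with all 18 arrays in one fit, 96 with the 6 arrays of the comparison, 806 with the replicate block and 2461 without experiment 0, an alternative chosen after seeing the data. Leaving out 1 array moved it from 54 (without WTp53 of experiment 4) to 2292 (without ΔNp53:WTp53 of experiment 0), with 91 and 158 without the ΔNp53:WTp53 arrays of experiments 4 and 5, 242 and 80 without the WTp53 arrays of experiments 0 and 5, and 232 and 251 without the vector arrays of experiments 4 and 5. With all 18 arrays in one fit 1855 genes were called for tethered WTp53 against WTp53, in place of 5970, and 3603 for WTp53 against the vector in the second set, in place of 6769. The other counts stayed within 1.5 times: leaving out 1 array gave 5202 to 7763 for ΔNp53:WTp53 and 4346 to 6810 for WTp53 against the vector in the first set, and 8010 to 8661 for tethered WTp53 and 5822 to 6968 for WTp53 against the vector in the second, with 4467 to 5789 for tethered WTp53 against WTp53. Members kept the direction of every difference under all alternatives run. The single-set spread decides some calls: in the 18-array fit CDKL2 did not pass for WTp53 against the vector in the second set (limma adjusted p = 0.135). The replicate block changed 1 member call, that of MERTK. Of the related genes' values 143 of 1579 lost their call under an alternative and 0 changed direction. For these losses the cause was not tested.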
